A study of Homo sapiens with 9 samples.

Results

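The regions described here are 5 windows of the human genome, in hg19 coordinates, outside chromosome 6 that were chosen because they hold clusters of transfer RNA (tRNA) genes. They are 1q23.3 (chromosome 1, 161000001 to 162000000), 5q35.3 (chromosome 5, 180000001 to 180920000), 14q11.2 (chromosome 14, 21000001 to 22000000), 16p13.3 (chromosome 16, 3000001 to 4000000) and 17p13.1 (chromosome 17, 8000001 to 9000000). The members are the CUT&Tag peaks whose summit lies in a window. They number 287 of 26201 peaks on the assembled chromosomes, or of 27108 with other contigs included. The peaks were selected by their deposited summit positions, and the windows were proposed with peak counts of these data in view, so counts and overlaps are given as a description with no test.

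All libraries came from A549, a human lung adenocarcinoma cell line, with 3 replicates in each of 3 groups. The HA-BAZ2B group is cells that carry an HA epitope tag at the 5′ end of their own BAZ2B gene, with an anti-HA antibody. The WT group is A549 without the tag and with that antibody too, so it has no epitope to bind. The H3K4me3 group is the tagged cells again, with an antibody to this histone mark of active promoters. CUT&Tag tethers a transposase to the antibody, so that fragments are cut out around the bound sites. BAZ2B is a bromodomain protein and a subunit of ISWI-type remodelers, which move nucleosomes. The labels' protocol names an siRNA transfection for all 9 libraries without saying which siRNA a library received, and a spike-in of Drosophila chromatin. No source used here says whether the tagged line is 1 clone. The antibody labels of H3K4me3 replicates 2 and 3 end in another number than that of replicate 1.

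tRNA genes are short and are transcribed by RNA polymerase III from promoter boxes inside the gene. The factor TFIIIC binds these boxes and brings TFIIIB, which recruits the polymerase. Many human tRNA genes lie in clusters, and the active ones are open sites flanked by nucleosomes with marks that promoters of RNA polymerase II also carry, H3K4me3 among them.

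The order of genes in RefSeq (GRCh38.p14) places 95 of its 443 nuclear tRNA genes between protein-coding genes of these bands, and 155 on chromosome 6. At 1q23.3, 32 tRNA genes lie between CFAP126 and FCRLA, 12 of them for glycine. Their order holds 4 successive complete units of the same 5 genes, for glycine (anticodon TCC), aspartate (GTC), leucine (CAG), glycine (GCC) and glutamate (CTC). At 5q35.3, 17 tRNA genes lie between BTNL9 and TRIM41, 8 of them for valine. At 14q11.2, 14 lie between RNASE12 and ANG, which encodes angiogenin, a ribonuclease that cuts tRNAs, and 5 of them are for tyrosine. At 16p13.3, 14 lie between the zinc finger genes ZNF213 and ZNF200, 7 of them for proline. At 17p13.1, 18 lie between ALOXE3, which encodes a lipoxygenase, and PFAS, which encodes an enzyme of purine synthesis. Protein-coding genes also lie within these intervals, 5 at 1q23.3, 3 at 5q35.3, 1 at 14q11.2, 1 at 16p13.3 and 7 at 17p13.1. This table has another build than the peak lists, so it gives names and order only, and no peak below was assigned to a tRNA gene.

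A single peak list was deposited per group, and its positions and scores come from 1 library: replicate 2 for WT, replicate 3 for HA-BAZ2B and replicate 1 for H3K4me3. A listed peak was present in at least 2 replicates. There is thus no value per replicate and no spread between replicates for any peak or share below. Both scores used here are the caller's. The fold is the enrichment at the summit over the peak caller's own background estimate, and −log10 q is the caller's significance, which also grows with the number of reads. Neither is scaled between lists, so a score is read by its rank in its own list. Read depth is unknown. Names of the WT and H3K4me3 source libraries share a suffix, absent from the HA-BAZ2B name, whose meaning no source used here gives.

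Peaks of untagged cells gathered in these windows by count. The windows held 58 of 2389 WT peaks, which is 2.43% of that list (exact 95% binomial interval 1.85 to 3.13%). They held 93 of 6794 HA-BAZ2B peaks, or 1.37% (1.11 to 1.67%), and 136 of 17018 H3K4me3 peaks, or 0.799% (0.671 to 0.945%). The share of the list was thus highest for the anti-HA signal of cells without the epitope. Without the 1q23.3 window both anti-HA shares were lower, at 38 WT peaks, or 1.59% (1.13 to 2.18%), and 66 HA-BAZ2B peaks, or 0.971% (0.752 to 1.23%). The WT share was still the higher, with intervals that overlap. All intervals here are Clopper-Pearson intervals over peaks of 1 library each. They cover counting error only, treat clustered peaks as independent, and are not used as a test.

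The 5 windows differed among themselves. At 1q23.3 there were 20 WT, 27 HA-BAZ2B and 36 H3K4me3 peaks. The 17p13.1 window held 13, 18 and 25 in the same order, and 14q11.2 held 10, 17 and 23. The shorter 5q35.3 window held 9, 14 and 22, and 16p13.3 held 6, 17 and 30. Only 1q23.3 had more H3K4me3 peaks than 16p13.3, which had the fewest WT peaks of the 5. Per H3K4me3 peak there were 0.556 WT peaks at 1q23.3, 0.520 at 17p13.1, 0.435 at 14q11.2, 0.409 at 5q35.3 and 0.200 at 16p13.3, against 0.138 outside the windows.

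The genome was also divided into windows of 1 Mb, and those with at least 1 H3K4me3 peak were kept, 2456 in all. By number of WT peaks, 1q23.3 ranked 1, 17p13.1 ranked 3, 14q11.2 ranked 8, 5q35.3 ranked 11 and 16p13.3 ranked 27. By number of H3K4me3 peaks the same windows ranked 12, 62, 79, 90 and 33. Of the 5 windows, 4 thus stood much higher in the order of WT peaks than in that of H3K4me3 peaks, and 16p13.3 did so only slightly. The other 2451 windows had a median of 0 and a mean of 0.948 WT peaks, and 44 of them reached 6 or more. The highest counts among the others, where tRNA genes were not placed, were 16 WT peaks at 49 to 50 Mb of chromosome 19, 13 at 41 to 42 Mb of the same chromosome and 12 at 73 to 74 Mb of chromosome 17.

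**Figure D1:**
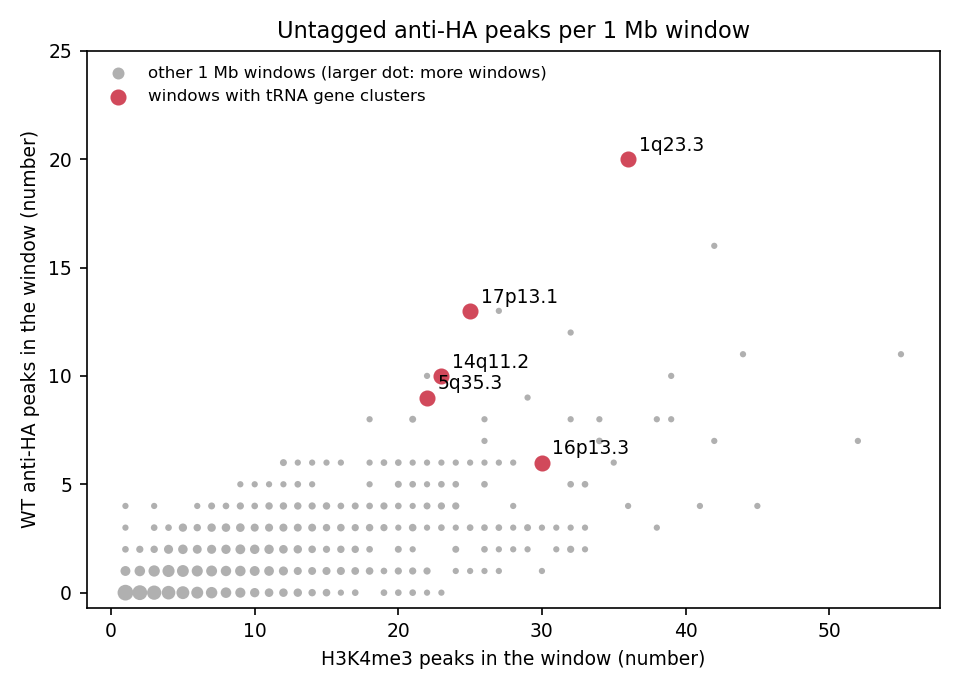
Number of WT peaks (y axis) against number of H3K4me3 peaks (x axis) in 1 Mb windows of hg19, 1 point per window, with the 5 tRNA cluster windows labelled and larger grey dots standing for more windows. The 1q23.3 window has the highest WT count, 20, and 16p13.3 with 6 lies among the other windows with about as many H3K4me3 peaks.

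Among the 139 windows with 20 or more H3K4me3 peaks, the ratio of WT to H3K4me3 peaks ranked 1q23.3 at 1, 17p13.1 at 2, 14q11.2 at 5, 5q35.3 at 6 and 16p13.3 at 43. The other 134 windows had a median ratio of 0.143, and the highest of them, on chromosome 19, reached 0.481. By the ratio of HA-BAZ2B to H3K4me3 peaks the 5 windows ranked 2, 4, 3, 10 and 24 in the same order, against a median of 0.429 in the others. The tagged list was therefore also dense in these windows.

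Counted over H3K4me3 peaks, 57 of 136 in the windows overlapped a WT peak by at least 1 bp, or 41.9% (33.5 to 50.7%), where 13.1% of all H3K4me3 peaks did. On the same 5 chromosomes outside the windows the share was 14.7% (13.7 to 15.8%). At 1q23.3 the share was 55.6% (38.1 to 72.1%), against 12.5% on the rest of chromosome 1. At 17p13.1 it was 48.0% (27.8 to 68.7%), against 19.8% on the rest of chromosome 17. At 14q11.2 it was 43.5% (23.2 to 65.5%), against 15.9% on the rest of chromosome 14. Each of these shares was more than 2 times that of the rest of its chromosome, and so was that of 5q35.3. The 5q35.3 share was 40.9% (20.7 to 63.6%), against 13.3%. At 16p13.3 the share was 20.0% (7.71 to 38.6%), against 13.1% on the rest of chromosome 16, the smallest difference of the 5 windows.

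**Figure D2:**
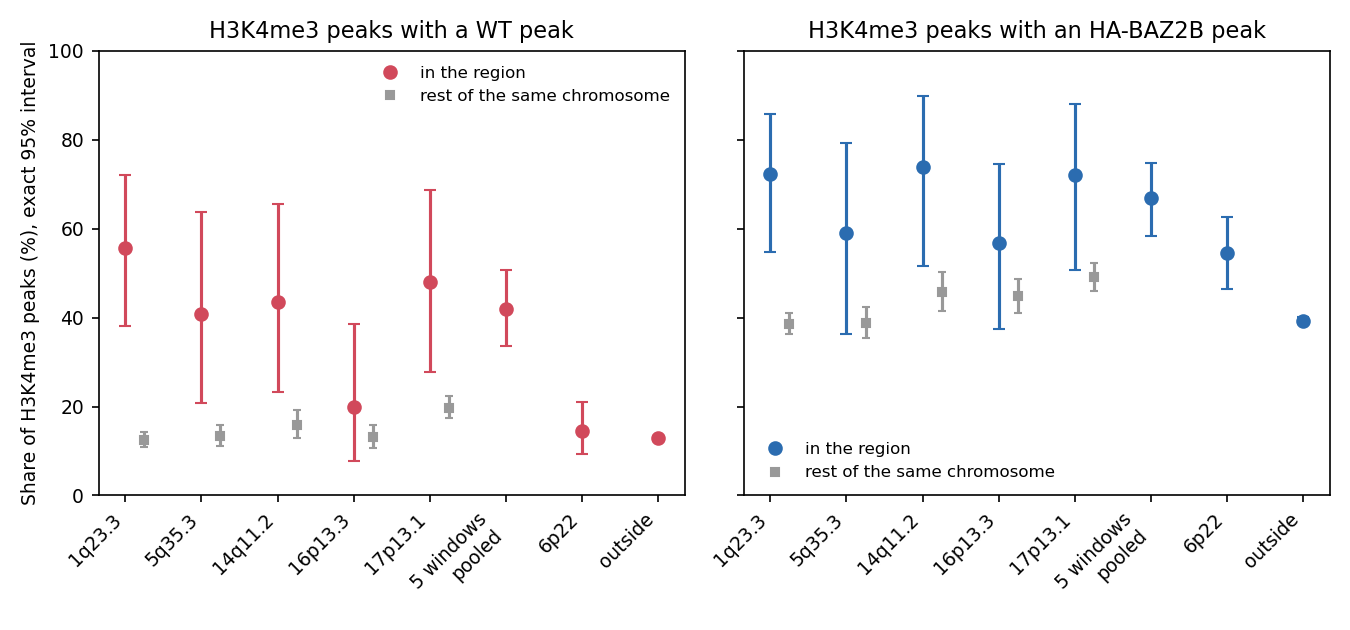
Share of H3K4me3 peaks (y axis, percent) that overlap a WT peak (left) or an HA-BAZ2B peak (right), for each window and the rest of its chromosome (grey squares), the 5 windows pooled, 6p22 and all peaks outside the windows, with exact 95% binomial intervals over peaks. For WT the share of 16p13.3, 20.0%, is the closest to that of its chromosome, 13.1%, and the other 4 windows have 40.9 to 55.6%.

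The large tRNA gene region of chromosome 6, 6p22 (26 to 29 Mb), did not show this higher share. There 22 of 152 H3K4me3 peaks overlapped a WT peak, or 14.5% (9.30 to 21.1%), close to the 12.9% of all H3K4me3 peaks outside the 5 windows. By count, however, WT peaks were dense at 6p22 too, with 22 over 3 Mb, or 7.33 per Mb. The 5 windows together had 11.8 per Mb, and the other 1 Mb windows had a mean of 0.948. A run of 4 WT peaks lay between 26305483 and 26323100. The 6p22 stretch also holds histone genes, and its tRNA genes were not placed here.

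With tagged cells the share of H3K4me3 peaks that overlapped an HA-BAZ2B peak was 91 of 136, or 66.9% (58.3 to 74.7%), where 39.5% of all H3K4me3 peaks did. The windows gave 72.2% at 1q23.3, 59.1% at 5q35.3, 73.9% at 14q11.2, 56.7% at 16p13.3 and 72.0% at 17p13.1. The rest of each chromosome gave 38.6, 38.8, 45.8, 44.8 and 49.2% in the same order. Every window was above its chromosome, by the least at 16p13.3. With every list limited to its 2389 most significant peaks most of the contrast was lost, at 59.1% of 22 H3K4me3 peaks (36.4 to 79.3%) in the windows and 55.0% outside. The share with a WT peak was then 50.0% (28.2 to 71.8%), against 28.7%.

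Of the 136 H3K4me3 peaks, 55 (40.4%) overlapped peaks of both anti-HA lists, 36 (26.5%) an HA-BAZ2B peak only, 2 a WT peak only, and 43 (31.6%) neither. Outside the windows those shares were 11.1% for both, 28.3% for HA-BAZ2B only and 58.9% for neither. The windows differed from the rest in the class shared by tagged and untagged cells, while the class found with the tag alone was of similar size. The H3K4me3 peaks themselves were not unusually strong, with a median fold of 8.46 in the windows and 9.08 outside, and median widths of 1149 and 1132 bp.

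The WT peaks of the windows were compared with the peaks of the tagged cells. They overlapped an HA-BAZ2B peak in 55 of 58 cases, or 94.8% (85.6 to 98.9%), where 81.0% of the whole WT list did, and an H3K4me3 peak in 56 of 58 (96.6%), where 93.4% did. These higher shares depended on the settings. With lists of equal length they were lower than outside, at 27.6% against 32.5% for HA-BAZ2B and 18.97% against 29.3% for H3K4me3, and with an overlap of 50% of the peak the first was 75.9% against 75.4%. Conversely, 57 of 93 HA-BAZ2B peaks overlapped a WT peak, or 61.3% (50.6 to 71.2%), where 28.7% of the whole list did. At 6p22 that share was 22.9%. All 93 HA-BAZ2B peaks lay on an H3K4me3 peak, where 99.0% of the list did. By window the overlap of HA-BAZ2B peaks with WT peaks ran from 6 of 17 at 16p13.3 (35.3%) to 20 of 27 at 1q23.3 (74.1%). Over all 5 it was 46.2% when the overlap had to cover 50% of the peak.

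The WT peaks of the windows ranked low in fold and high in significance and width. Their median fold was 5.33, against 6.43 for WT peaks outside, and stood at percentile 25.1 of the WT list. Their median −log10 q was 15.6 against 10.2, at percentile 74.7, and their median width was 870.5 bp against 636 bp, at percentile 78.4. At 6p22 the median WT fold, 6.51, stood at percentile 52.3, with −log10 q at percentile 66.9 and width at percentile 67.4. HA-BAZ2B peaks of the windows were low in all 3 measures, with a median fold of 7.09 against 8.17, −log10 q of 21.9 against 28.6 and width of 929 against 1223 bp. By these medians, the combination of low fold with high significance was thus seen in the WT list and not in the HA-BAZ2B list.

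**Figure D3:**
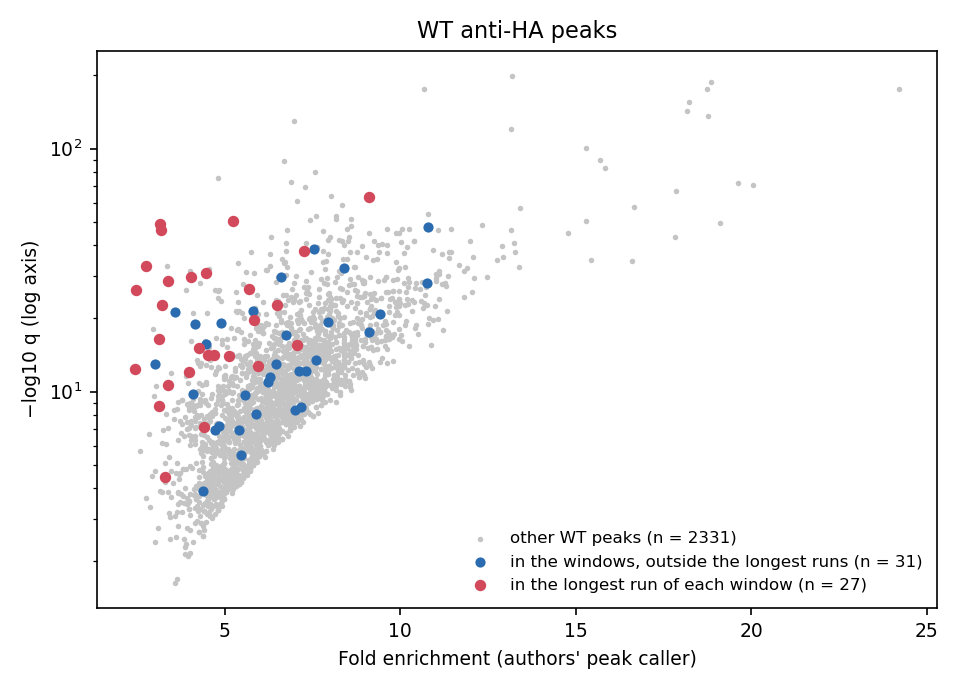
Fold enrichment (x axis) against −log10 q (y axis, log scale) of each WT peak, with the 27 peaks of the longest runs in red, the other 31 of the windows in blue and the rest in grey. Of 19 peaks with a fold under 4 and −log10 q of 10 or more, 11 lie in the windows.

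Only 19 WT peaks of the whole list had a fold under 4 together with −log10 q of at least 10, and 11 of them lay in the windows. None lay at 6p22. The other 8 were on chromosomes 1, 11, 17, 18, 19 and 21, among them the peak at 9825687 to 9826371 of chromosome 21 with a fold of 3.90 and −log10 q of 26.2. There were 6 WT peaks of 2000 bp or more, and 5 of these lay in the windows. The other, of 3075 bp, began at 58776347 of chromosome 6. These limits were chosen after the values were seen. The counts were made for the WT list only, and single peaks of the other lists in the windows also met the limits of fold and −log10 q. An example is the HA-BAZ2B peak at 180669865 to 180671484 of chromosome 5, with a fold of 3.64 and −log10 q of 19.1. That significance stood at percentile 27.3 of its own list.

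Within a window the WT peaks stood close together. Of 58 WT peaks, 41 (70.7%) had another WT summit within 25 kb, against 12.9% of WT peaks outside. For H3K4me3 peaks the corresponding shares were 84.6 and 42.3%. A run was taken as successive WT summits no more than 25 kb apart. Only 4 runs of 6 or more WT peaks exist on the assembled chromosomes, and 3 of them are the longest runs of 1q23.3, 5q35.3 and 17p13.1. The other is on chromosome 19, between 40909844 and 40971576.

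With the windows pooled, the 27 WT peaks in the longest run of each window carried most of the low fold. Their median fold was 4.26, which is percentile 6.49 of the WT list, and their median −log10 q was 19.7, at percentile 83.9. The 31 WT peaks elsewhere in the windows had a median fold of 6.30 and −log10 q of 13.0, at percentiles 47.0 and 64.8. Their median width of 832 bp stood at percentile 74.8, so high significance and width were seen outside the runs too. By window the fold contrast was largest at 1q23.3, 3.20 against 7.19, and smallest at 5q35.3, 4.81 against 4.89. That of −log10 q was largest at 5q35.3, 28.0 against 15.7, and smallest at 16p13.3, 10.7 against 9.78. For the other lists both scores were lower within the same stretches than in the rest of the windows. H3K4me3 peaks had a median fold of 4.68 there against 9.39, and −log10 q of 28.1 against 42.7. HA-BAZ2B peaks had a fold of 5.69 against 9.02, and −log10 q of 17.1 against 28.8. Over the windows together, fold was therefore lower in the runs in all 3 lists, whereas −log10 q was higher in the WT list alone. At 1q23.3 the H3K4me3 −log10 q of the run, 46.4, was close to the 45.1 of the rest of the window.

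**Figure D4:**
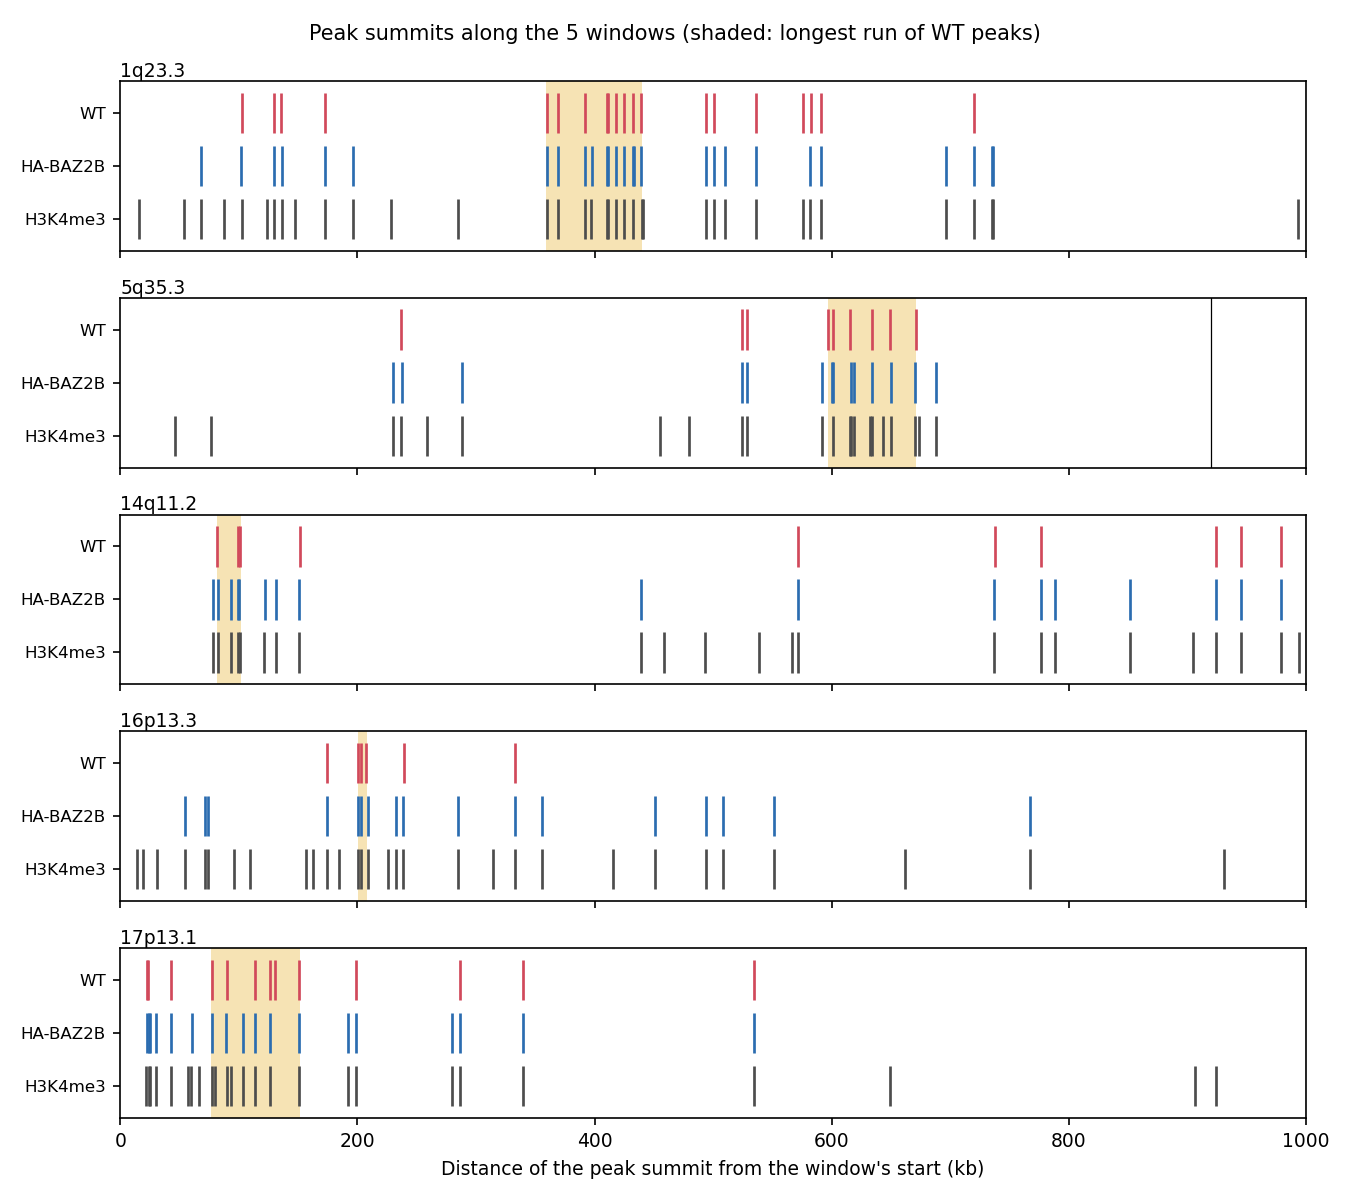
Peak summits of the 3 lists along each window, plotted as distance from the window's start in kb, with the longest run of WT peaks shaded and the end of the shorter 5q35.3 window drawn as a line. The runs span 80.8 kb at 1q23.3, 74.9 kb at 5q35.3, 20.2 kb at 14q11.2, 7.51 kb at 16p13.3 and 74.8 kb at 17p13.1, so most of each window lies outside them.

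Peaks that matched one to one were compared by width. The median ratio of WT to HA-BAZ2B width was 0.877 over 53 pairs in the windows and 0.518 over 1849 pairs outside. By window it was 1.53 at 5q35.3, 1.00 at 17p13.1, 0.922 at 1q23.3, 0.696 at 16p13.3 and 0.596 at 14q11.2, so the last 2 were nearer to the value outside. The WT peak was the wider in 22 of 53 pairs, or 41.5% (28.1 to 55.9%), against 257 of 1849 (13.9%). This was seen in 7 of 18 pairs at 1q23.3, 5 of 7 at 5q35.3, 4 of 10 at 14q11.2, 0 of 6 at 16p13.3 and 6 of 12 at 17p13.1. At 6p22 the median ratio was 0.768 over 19 pairs, and the WT peak was the wider in 5 of them (26.3%). Relative to H3K4me3 the median WT width was 0.669 in the windows and 0.496 outside. The summit of a WT peak was a median of 54 bp from the H3K4me3 summit and 218 bp from the HA-BAZ2B summit, against 79 and 172 bp outside.

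The longest run of the genome by number of WT peaks was at 1q23.3, with 9 peaks from 161359493 to 161440253. Its last 6 peaks, from 161410301, covered 30.5% of 29.95 kb and came at near-regular steps. After a first pair 0.769 kb apart, successive WT summits were 6.17, 6.81, 8.01 and 6.78 kb apart. H3K4me3 summits followed with steps of 6.18, 7.38, 7.41 and 7.38 kb. The spacing of listed peaks was thus shared with the promoter mark, and the HA-BAZ2B list had peaks at the same places. Peak numbers are missing within this stretch in the WT and H3K4me3 lists. Unlisted peaks of unknown position may therefore lie between the steps.

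These 6 WT peaks had the lowest folds of the window, between 2.45 and 3.40, all within the lowest 1.34% of the WT list. The peak at 161411433 to 161411814 had the lowest fold of all WT peaks, 2.45, with −log10 q of 12.3. The 4 peaks after the first pair were among the widest of the list, with −log10 q above 91.6% of it or more. The peak at 161424038 to 161426133 was 2096 bp wide, with a fold of 3.15 and −log10 q of 48.8, above 98.5% of WT peaks. Its neighbour at 161431465 to 161433759, of 2295 bp, had a fold of 2.78 and −log10 q of 32.9. In the same stretch H3K4me3 folds were 3.43 to 4.24, within the lowest 4.03% of that list, and their −log10 q stood between percentiles 18.9 and 61.0 with a median at 53.1. HA-BAZ2B folds were 3.49 to 7.67, at percentiles 1.07 to 42.1 of that list with a median at 17.9. Their median −log10 q of 17.9 stood at percentile 24.7. By fold the stretch ranked very low for WT and H3K4me3 and less low for HA-BAZ2B. Its median rank by −log10 q was high for WT, intermediate for H3K4me3 and low for HA-BAZ2B. No source used here says how reads that match several copies of a repeated unit were placed, and their part in these scores was not tested.

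**Figure D5:**
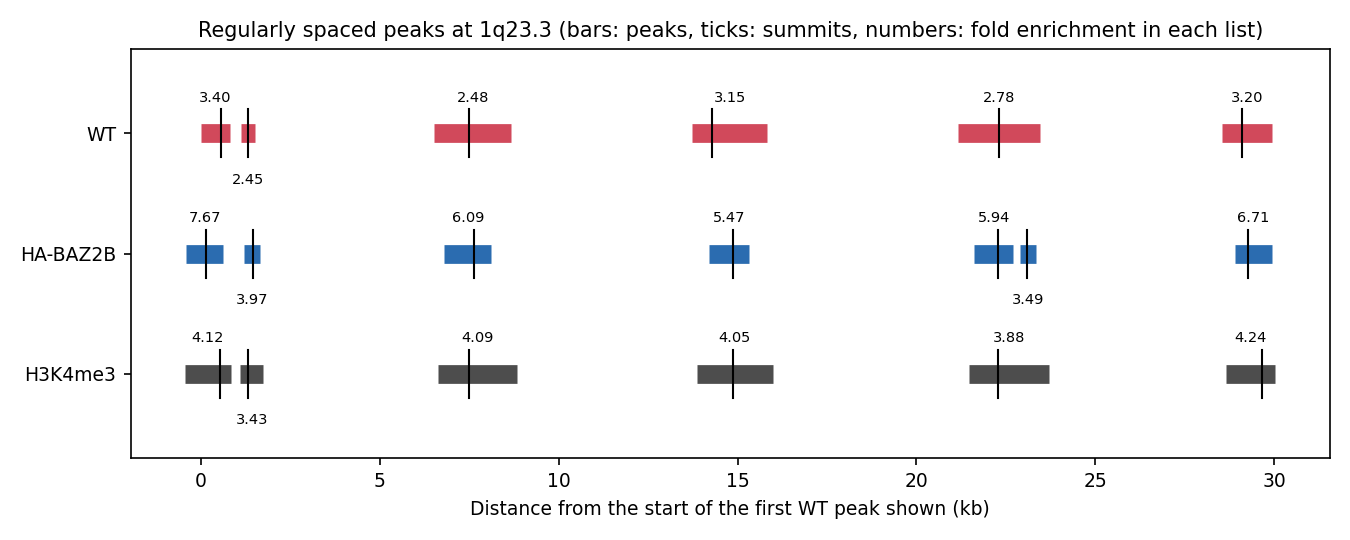
Peaks of the 3 lists in the stretch of 1q23.3 with near-regular peak spacing, as bars from start to end at their distance in kb from the start of the first WT peak, with ticks at the summits and the fold written above or below each. WT summits step by 6.17 to 8.01 kb after the first pair and have folds of 2.45 to 3.40.

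The WT peaks of highest fold at 1q23.3 lay away from that run. One at 161102037 to 161102978 had a fold of 10.8 and −log10 q of 47.8, above 98.3% of the list, where the HA-BAZ2B peak had a fold of 5.70 and −log10 q of 25.6. The other, at 161719516 to 161720115, had a fold of 10.8 and −log10 q of 28.1, and here the HA-BAZ2B peak was strong too, with a fold of 14.5 and −log10 q of 63.5. A peak at 161575886 to 161576311 had a fold of 9.11 and lay on an H3K4me3 peak and on no listed HA-BAZ2B peak, with the nearest HA-BAZ2B summit 5.96 kb from its own. The HA-BAZ2B source library had 1 unlisted peak between the listed ones on either side, whose position is not in the list. The window therefore held strong and weak WT peaks side by side.

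At 5q35.3 the run of 6 WT peaks spanned 180596625 to 180671509. Its strongest peak, at 180600305 to 180601441, had a fold of 7.26 and −log10 q of 37.9, above 96.6% of the WT list, over a width of 1137 bp. HA-BAZ2B had instead a pair of narrow peaks of 440 and 411 bp there, the first with a fold of 5.69 and −log10 q of 7.42. The peak at 180614630 to 180616218 was 1589 bp wide with −log10 q of 29.5 in WT, where the HA-BAZ2B peak measured 958 bp with 17.9. H3K4me3 had 2 peaks there, of 572 bp with 4.77 near the WT summit and of 656 bp with 8.39. At both sites the WT peak was wider than the HA-BAZ2B peak, and at the latter it was also wider than either H3K4me3 peak. The first peak of the run, at 180596625 to 180597062, with a fold of 4.00 and −log10 q of 12.04, overlapped no peak of the other lists. The nearest H3K4me3 summit was 4.09 kb away. Between the listed neighbours the HA-BAZ2B source library had 0 unlisted peaks and the H3K4me3 library 1.

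At 14q11.2 the WT peak at 21081299 to 21082315 had a fold of 9.11 and −log10 q of 63.1, above 99.0% of the WT list and the highest −log10 q of the windows. The HA-BAZ2B peak there had a fold of 6.45 and −log10 q of 16.8, and the H3K4me3 peak a fold of 6.29 and −log10 q of 35.9. By rank this was the site where the WT library stood out most in this window. It opens a run of 3, with peaks at 21098747 and 21100514 whose folds were 4.53 and 4.70 and whose −log10 q was 14.2 in each. Another broad peak, at 21150642 to 21152134, had a fold of 4.16 and −log10 q of 18.99. The remaining 6 lay between 21571843 and 21979856, with folds of 5.48 to 7.96.

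At 17p13.1 the run of 6 extended from 8076510 to 8151312. Its most significant peak, at 8089440 to 8091389, was 1950 bp wide with a fold of 5.24 and −log10 q of 50.4, above 98.5% of the list. The widest, at 8124340 to 8126661, measured 2322 bp with a fold of 3.21 and −log10 q of 22.7. The peak at 8129653 to 8130316, with a fold of 3.12 and −log10 q of 16.4, overlapped no peak of either other list. Both source libraries of those lists had 0 unlisted peaks between the neighbours on either side, so this site gave a peak in WT and none in the source libraries of the other groups. A further pair at 8021950 and 8023159, before the run, had folds of 3.03 and 3.59. Higher folds came outside these places, up to 9.44 at 8533726 to 8534742.

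At 16p13.3 the 3 WT peaks of the run lay within 7.51 kb, from 3200382 to 3207888, with folds of 4.26, 3.12 and 3.40 and −log10 q of 15.1, 8.69 and 10.7. They had the low folds of the other runs, at percentiles 6.49, 0.628 and 1.38 of the list, with −log10 q nearer the middle of it. The other 3 WT peaks were at 3174333, 3238669 and 3332767, with folds of 4.85, 4.10 and 7.60. No listed WT peak lay in the last 667 kb of this window, where H3K4me3 and HA-BAZ2B peaks continued. Peak numbers are missing between its last listed WT peak and the next one. Unlisted peaks of the WT source library may therefore lie there.

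Peaks found with the tag alone were present in every window. Of the 93 HA-BAZ2B peaks, 36 overlapped no WT peak: 7 at 1q23.3, 5 at 5q35.3, 7 at 14q11.2, 11 at 16p13.3 and 6 at 17p13.1. Over the whole HA-BAZ2B list 4847 of 6794 overlapped none, so such peaks were a smaller part of the list in the windows. Those of highest fold included 16p13.3 at 3550854 to 3551715 with a fold of 12.7, 5q35.3 at 180229053 to 180229885 with 12.6 and 14q11.2 at 21439307 to 21439726 with 12.6. The highest at 17p13.1, at 8279389 to 8280190, had a fold of 12.5, and the highest at 1q23.3, at 161195747 to 161196383, had 12.4. Such folds were above 93.2 to 94.4% of HA-BAZ2B peaks. An unlisted WT peak may still lie at such a site. Of 35 with WT peaks listed on both sides, 3 had no numbered WT peak missing from the interval, and 32 had at least 1 whose position is not known. The 3 are 8.57% (1.80 to 23.1%), and outside the windows the share was 115 of 4758, or 2.42%.

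Peaks of the source library that did not recur are counted by gaps in the peak numbers. Between the first and last listed WT peak of each window, 58 of 87 numbered WT peaks were listed, or 66.7%, against 25.5% outside. Counted the same way, the 44 other windows with 6 or more listed WT peaks had 53.2%. Counted out to the listed peaks beyond each edge, the share in the 5 windows was 47.2%, against 25.6% outside them. At 6p22 the share was 25.9%. For HA-BAZ2B the share was 76.2% in the windows and 58.6% in the other windows with 6 or more listed peaks.

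The window edges did not divide runs of WT peaks. The nearest WT summit outside was 1105 kb before and 532 kb after 1q23.3, 501 kb before 5q35.3, 70.1 kb before and 1058 kb after 14q11.2, 44.3 kb before and 476 kb after 16p13.3, and 239 kb before and 548 kb after 17p13.1. Just inside, the first WT summit was 103, 237, 81.8, 175 and 22.3 kb from the start of the window, in the same order. The 5q35.3 window reaches to the end of the chromosome.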

How the data were processed

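The authors deposited 1 narrowPeak list per group of 3 CUT&Tag replicates. Bowtie2 2.4.5, Picard, SAMtools 1.15.1, bedtools and MACS2 2.1.4 with the builds hg19 and dm6 are named, with no role or order, per the submitters' processing notes. No source used here states the peak caller's settings, a control library or a use of the spike-in. Per the labels, peaks present in at least 2 replicates were kept from the largest peak file. The peak names show which replicate that was. The deposited fold is a linear ratio over the caller's background estimate, the deposited significance is −log10 of a q-value, and the deposited score repeats it and was not used. The lowest deposited −log10 q is 1.36. Positions are printed 1-based.

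Peaks of the assembled chromosomes (1 to 22, X and Y) were placed in a window by their summit. An overlap needed at least 1 bp. Unlisted peaks were counted from gaps in the peak numbers, which increase along each list. Shares carry exact 95% binomial intervals over peaks. No test was made, since no value per replicate was used here and the windows, lists and limits were chosen with earlier results of these data known. The counting of overlaps and of runs was checked on simulated lists, and the other counting steps were not. Sites named by position are, per window, the 1 or 2 WT peaks of highest fold, WT peaks without an H3K4me3 or HA-BAZ2B peak, HA-BAZ2B peaks of highest fold without a WT peak, the longest run and the edges. Other named sites were chosen after their values were seen. Band names came from circlize 0.4.16. The rest was computed in Python 3.11.15 with scipy 1.17.1, pandas 2.3.3, numpy 2.4.6 and matplotlib 3.10.9.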

Additional observations from a re-analysis of the deposited data

How the results depend on the processing

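Of 67 alternatives to 9 counts and shares, 59 left the value near the one reported, 6 moved it and 2 turned its direction. Without the 1q23.3 window 38 WT peaks remained, or 1.59% of the list, and the share of H3K4me3 peaks with a WT peak was 37.0%. Without the 16p13.3 window that share was 48.1%. When an overlap had to cover at least 50% of the peak, the share of H3K4me3 peaks with a WT peak was 30.9% in the windows (6.19% outside), that with an HA-BAZ2B peak 56.6% (36.8%), that of WT peaks on an HA-BAZ2B peak 75.9% (75.4%) and that of HA-BAZ2B peaks with a WT peak 46.2% (13.3%). When every list was limited to its 2389 peaks of highest −log10 q, WT peaks of the windows lay on an HA-BAZ2B peak in 27.6% of cases against 32.5% outside, and on an H3K4me3 peak in 18.97% against 29.3%. Under that limit H3K4me3 peaks had an HA-BAZ2B peak in 59.1% of cases against 55.0% outside, and a WT peak in 50.0% against 28.7%, over 22 peaks in the windows. Counted out to the listed peaks beyond each window, 47.2% of numbered WT peaks were listed.

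Leaving out a replicate was not run, since each list carries the values of 1 library. No paired analysis was possible because no result comes from a test and no value per replicate was used. Read depth and the placing of reads in repeated sequence limit what peak counts and scores show here, and neither was tested.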
